A study of Mus musculus with 6 samples.

Results

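Mt1, Mt2 and Mtf1 were followed through RNA sequencing of RAW 264.7 cells, a mouse macrophage line, grown on zinc alloys. Mt1 and Mt2 encode metallothioneins and Mtf1 encodes the transcription factor that senses zinc and drives them. They were picked by gene symbol, and are 3 of the 54532 genes counted. All 3 were among the 13156 genes that passed the filter on low counts. The cells stood for 3 days on one of 3 metals, and every metal was zinc-based and carried a CaP (calcium phosphate) coating. The groups were CaP Zn, which adds no other metal by its name, CaP Zn0.8Mn, which adds manganese, and CaP Zn0.8Mn0.1Li, which adds manganese and lithium, with 2 libraries each. The series names the comparison of these 3 surfaces as its design. The reference for each difference is therefore cells on coated zinc, and cells grown without zinc were not analysed here. RAW 264.7 is one transformed line, and no label says whether the 2 libraries of an alloy were separate cultures. The spread that the p-values rest on may therefore be technical.

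Metallothioneins are small proteins in which closely spaced cysteines hold zinc, copper or cadmium, and they buffer free zinc in the cell. When free zinc rises, the zinc fingers of MTF-1 fold, and the factor binds short metal response elements (MREs) before its target genes. Mt1 and Mt2 are the broadly expressed members of the mouse cluster, while Mt3 is best known from brain and Mt4 from stratified squamous epithelium. Other MTF-1 targets include Slc30a1, which exports zinc across the plasma membrane, and Slc39a10, a zinc importer that the factor represses. In macrophages, metallothioneins also respond to glucocorticoids, inflammatory signals and oxidants.

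The files place Mt1 (ENSMUSG00000031765) at 94179082 to 94180327 and Mt2 (ENSMUSG00000031762) at 94172664 to 94173568 of chromosome 8. Both lie on the plus strand, and 5513 bases separate the end of Mt2 from the start of Mt1. Mtf1 (ENSMUSG00000028890) lies at 124802104 to 124849800 of chromosome 4, on the plus strand. These are GRCm38 positions: of 54409 identifiers found in the GENCODE annotation, 53499 (98.3%) have that build's start and end, although the submitters' processing notes name mm9. The bases before the earlier of the RefSeq and GENCODE starts of each metallothionein gene are shown because they hold letters that MTF-1 can read. That is the RefSeq start for Mt2 and the GENCODE start for Mt1. They come from the RefSeq promoter table of build GRCm38.p6, plus strand, at chr8:94172368-94172617 for Mt2 and chr8:94178839-94179081 for Mt1. Capitals mark the MRE core, searched as TGCACNC and TGCGCNC on both strands.
Mt2: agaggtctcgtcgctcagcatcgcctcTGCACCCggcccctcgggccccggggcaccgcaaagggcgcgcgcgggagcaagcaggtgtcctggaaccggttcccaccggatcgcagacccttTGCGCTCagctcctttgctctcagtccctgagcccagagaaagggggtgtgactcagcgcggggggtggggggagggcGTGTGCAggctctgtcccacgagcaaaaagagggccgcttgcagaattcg
Mt1: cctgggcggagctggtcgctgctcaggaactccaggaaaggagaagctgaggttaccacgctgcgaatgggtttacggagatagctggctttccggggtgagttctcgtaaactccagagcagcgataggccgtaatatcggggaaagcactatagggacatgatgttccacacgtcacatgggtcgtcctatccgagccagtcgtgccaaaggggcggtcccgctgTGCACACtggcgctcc
The Mt2 stretch held 3 matches and the Mt1 stretch 1. A further Mt2 match, at 94172622 to 94172628, lies after the printed stretch and before the Mt2 start of 94172664 given above. No marked matches overlap.

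More matches lie further on, between alternative transcript starts. Over the RefSeq promoter window and the first exon together, Mt1 held 5 matches in 500 bases. All 5 lay within 200 bases before its most downstream annotated start, at 94179241. Mt2 held 7 matches in 508 bases, all before its most downstream annotated start at 94172860, and 3 of them within 200 bases of it. Against promoters in general, only windows of equal length were compared. Of 32851 RefSeq windows of 300 bases, 25.7% held at least 1 match, 1.97% held at least 3, as the Mt1 window did, and 0.517% held at least 4, as the Mt2 window did. The Slc30a1 window held 2 matches, and the Mt3 and Mt4 windows held 1 each. Neither Slc39a10 window held one, nor did that of Mtf1. A match describes the letters only, and the data hold no measure of MTF-1 binding.

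Totals ran from 14944070 to 17709290 counts per library, which puts a floor of 3 counts at 0.161 to 0.198 CPM (counts scaled to library size). One library stood apart: in CaP Zn0.8Mn replicate 1, mitochondrial genes took 7.88% of counts, against 1.82 to 2.15% in the others. Its correlation with the other 5 libraries, across genes, was 0.909 to 0.927, whereas each of those reached 0.993 to 0.995 with its nearest library. Of all tested genes, 41.9% had their lowest CPM in it. All 8 macrophage markers passed the filter, and that library was the highest of the 6 for 4 of them (Adgre1, Csf1r, Ptprc and Cd14) and the lowest for the other 4 (Cd68, Itgam, Lyz2 and Spi1). Their summed level was 9551 CPM there and 11081 to 16733 CPM in the others, but without Lyz2, the most abundant, it was 3690 CPM there and 1899 to 2184 CPM in the others. The 4 epithelial markers were at 0 throughout. Of 7 fibroblast and osteoblast markers, 3 were at 0 throughout, and the summed level, 7.53 CPM there and 13.6 to 17.1 CPM elsewhere, was nearly all Runx2 (7.14 CPM there, 13.4 to 17.1 CPM elsewhere). Of 5 osteoclast markers, 4 passed the filter, with a sum of 77.0 CPM there against 102 to 201 CPM. Ctsk and Mmp9 were lowest in that library and Dcstamp (26.6 CPM there, 5.44 to 8.06 CPM elsewhere) and Ocstamp were highest in it. Each comparison is given with and without CaP Zn0.8Mn replicate 1, a choice made after seeing the data.

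Mt1 was among the most abundant messages in every library. Its level was 276 and 319 CPM on CaP Zn, 155 and 404 CPM on CaP Zn0.8Mn, and 369 and 478 CPM on CaP Zn0.8Mn0.1Li. Both lithium-alloy libraries lay above both CaP Zn libraries, and the CaP Zn0.8Mn pair spanned most of the range. Means in the same order were 297 ± 30.9 CPM, 279 ± 176 CPM and 424 ± 76.8 CPM (SD, n = 2 each). In bulk RNA, a change in every cell and a change in a share of the cells cannot be told apart.

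Mt2, the neighbouring metallothionein gene, was detected at low counts in every library. On CaP Zn it had 8 and 11 counts, on CaP Zn0.8Mn 11 and 22 counts, and on CaP Zn0.8Mn0.1Li 31 and 39 counts. Scaled to library size, these were 0.430 and 0.704 CPM, 0.727 and 1.42 CPM, and 1.87 and 2.38 CPM in the same order. No 2 alloys overlapped. Both lithium-alloy libraries lay above the other 4, as they did for 6.37% of tested genes. Both CaP Zn libraries lay below the other 4. The share of tested genes with that order, or with all alloys apart, was not counted. The gap between 0.704 and 0.727 CPM rests on 11 counts in each library. Means were 0.567 ± 0.193 CPM, 1.07 ± 0.492 CPM and 2.13 ± 0.363 CPM (SD, n = 2 each).

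Mtf1, the sensor, was nearly level. It stood at 26.6 and 28.3 CPM on CaP Zn, 23.5 and 29.4 CPM on CaP Zn0.8Mn, and 27.8 and 26.4 CPM on CaP Zn0.8Mn0.1Li. The 3 alloys overlapped, with CaP Zn0.8Mn replicate 1 lowest and replicate 2 of the same alloy highest. Means were 27.4 ± 1.17 CPM, 26.5 ± 4.16 CPM and 27.1 ± 1.00 CPM (SD, n = 2 each).

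**Figure D1:**
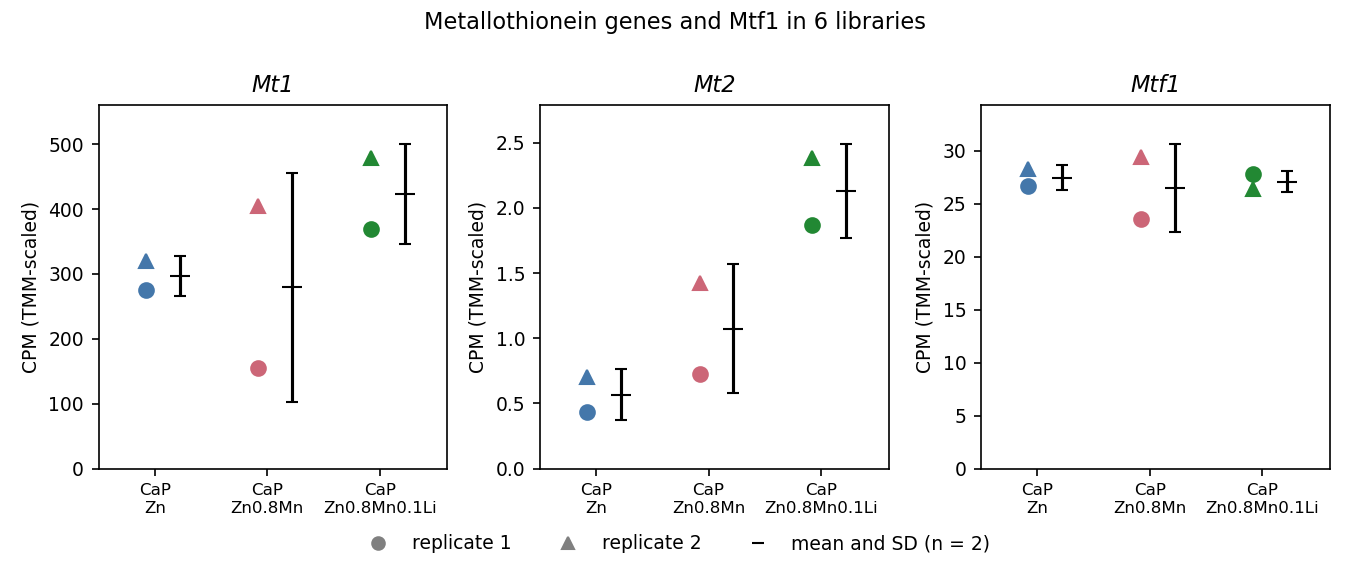
Level of Mt1, Mt2 and Mtf1 (CPM, scaled with TMM factors) in each library by alloy; circles are replicate 1, triangles replicate 2, and bars are the mean and SD of 2 libraries. Mt2 runs from 0.430 to 2.38 CPM, and Mt1 shows a wide CaP Zn0.8Mn pair of 155 and 404 CPM. Mtf1 stays between 23.5 and 29.4 CPM. The Mt2 values of CaP Zn replicate 2 (0.704 CPM) and CaP Zn0.8Mn replicate 1 (0.727 CPM) rest on 11 counts each.

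Levels of different genes were compared per length, as the deposited FPKM (fragments per kilobase of gene, scaled to library size). Mt1 stood at 219 and 255 FPKM on CaP Zn, 121 and 323 FPKM on CaP Zn0.8Mn, and 295 and 380 FPKM on CaP Zn0.8Mn0.1Li. That placed it between rank 153 and rank 303 of the 18334 to 18820 genes detected in a library. Mtf1, a regulator, was 47.1 to 129.7 times lower per length than Mt1. Such levels, ranks and ratios depend on the gene length used. For Mt1 that was 1246 bases, over all exons of its annotated transcripts, while its main transcript has 549 bases. Mtf1 stood at 2.95, 3.15, 2.57, 3.29, 3.10 and 2.93 FPKM in the same library order, and Mt2 at 0.723, 1.19, 1.20, 2.41, 3.16 and 4.02 FPKM. Mtf1 was above Mt2 in the 4 libraries on CaP Zn and CaP Zn0.8Mn, and Mt2 above Mtf1 in both on CaP Zn0.8Mn0.1Li. In that last group the order of the pair rests on a narrow gap in replicate 1, where they stood at 3.16 and 3.10 FPKM. In every library the order of Mt2 and Mtf1 is also uncertain because FPKM divides by all 588 Mt2 exon bases. Of these, 432 overlap an antisense gene described below, and reads there may not have been counted for Mt2.

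On CaP Zn0.8Mn0.1Li against CaP Zn, both metallothioneins had higher means and Mtf1 was nearly level, with no difference past the test. With all 6 libraries, Mt2 was higher by 1.90 on the log2 scale (SE 0.54, 95% interval 0.56 to 3.25), a 3.74-fold difference. The Mt1 difference was 0.51 (SE 0.46, 95% interval -0.65 to 1.67) and that of Mtf1 was -0.02 (SE 0.20, 95% interval -0.52 to 0.48), all log2. None passed: edgeR's quasi-likelihood test with Benjamini-Hochberg adjustment gave each an adjusted p of 1.00, and it called 0 of 13156 genes (0%). Before adjustment, 29 genes (0.22% of those tested) lay under 0.05 in edgeR's test. Mt2 was among them, with the 2nd lowest unadjusted p of all, 0.0136. Both metallothioneins had non-overlapping groups with the lithium alloy higher, as did 16.7% of all tested genes. Both lithium-alloy libraries were above the other 4 for Mt2 and for 6.37% of tested genes.

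When CaP Zn0.8Mn replicate 1, which is in neither group, was left out, the same differences stood but the estimated spread narrowed. Mt1 was then higher by 0.51 (SE 0.12, 95% interval 0.26 to 0.77), or 1.42-fold, and Mt2 by 1.92 (SE 0.46, 95% interval 0.95 to 2.89), or 3.77-fold. Mtf1 differed by -0.02 (SE 0.12, 95% interval -0.27 to 0.23). In edgeR's test, the unadjusted p was 0.000776 for Mt1 and 0.000710 for Mt2, 23rd and 20th lowest of all genes. Both had an adjusted p of 0.444, and 0 genes (0%) were called, with 660 (5.02%) at an unadjusted p under 0.05. DESeq2 on the same 5 libraries called Mt1 higher, with a log2 difference of 0.51 and an adjusted p of 0.0250. It called 12 genes, 0.621% of the 1933 it gave an adjusted p, and gave none for Mt2. Leaving out CaP Zn replicate 1 as well, edgeR called Mt1 at 0.41 (SE 0.099, adjusted p = 0.0165) among 47 genes (0.357%), but not Mt2 at 1.58 (SE 0.59, adjusted p = 0.465). Over all 23 alternatives, the adjusted p of Mt1 ranged from 0.0165 to 1.00 and the log2 difference from 0.31 to 0.67. Over the 22 alternatives that gave a value for Mt2, its log2 difference ranged from 1.23 to 2.29, and its adjusted p from 0.352 to 1.00 where one was given, in all but 1 of them.

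On CaP Zn0.8Mn against CaP Zn, the direction for Mt1 turned on which manganese-alloy library was read. The differences with all libraries were -0.09 for Mt1 (SE 0.46, 95% interval -1.24 to 1.06), 0.93 for Mt2 (SE 0.55, 95% interval -0.46 to 2.31) and -0.05 for Mtf1 (SE 0.20, 95% interval -0.55 to 0.45), all log2. None passed edgeR's test, with adjusted p of 0.937, 0.773 and 0.913, and it called 0% of genes, with 207 (1.57%) at an unadjusted p under 0.05. Only Mt2 had non-overlapping groups, higher on CaP Zn0.8Mn, as had 12.5% of tested genes. With replicate 2 as the lone CaP Zn0.8Mn library, assumed to vary like the other groups, Mt1 was higher by 0.44 (SE 0.14, 95% interval 0.13 to 0.75). Mt2 was then higher by 1.34 (SE 0.57, 95% interval 0.12 to 2.55) and Mtf1 by 0.10 (SE 0.14, 95% interval -0.20 to 0.40). Unadjusted p was 0.00821 for Mt1 and 0.0322 for Mt2, while 4.33% of genes lay under 0.05; the adjusted p of Mt1 was 0.967, and 2 genes were called (0.0152%). With replicate 1 as the lone library instead, Mt1 was called lower, by -0.95 with an adjusted p of 1.28e-04, in a fit that called 7808 genes (59.3%).

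The lithium-containing alloy against CaP Zn0.8Mn, which differ by the named lithium, gave no call for any of the 3 genes with all libraries. Mt1 differed by 0.60 (SE 0.46, 95% interval -0.56 to 1.76), Mt2 by 0.98 (SE 0.51, 95% interval -0.30 to 2.26) and Mtf1 by 0.03 (SE 0.20, 95% interval -0.47 to 0.53), all log2. In edgeR's test the adjusted p was 0.680, 0.680 and 0.939, and 0% of genes were called, with 316 (2.4%) at an unadjusted p under 0.05. Only Mt2 had non-overlapping groups, higher with lithium, as had 17.1% of tested genes. Without CaP Zn0.8Mn replicate 1, the differences were 0.07 for Mt1 (95% interval -0.24 to 0.38), 0.58 for Mt2 (95% interval -0.49 to 1.64) and -0.12 for Mtf1 (95% interval -0.42 to 0.18), with an adjusted p of 1.00 for each in edgeR's test. That fit called 2 genes (0.0152%), with 3.16% at an unadjusted p under 0.05. Without CaP Zn0.8Mn replicate 2, edgeR called Mt1 (1.45, adjusted p = 3.35e-06) and Mt2 (1.54, adjusted p = 0.0307) higher with lithium, in a fit that called 61.5% of genes. The 3 comparisons share their libraries, so they are not separate pieces of evidence.

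**Figure D2:**
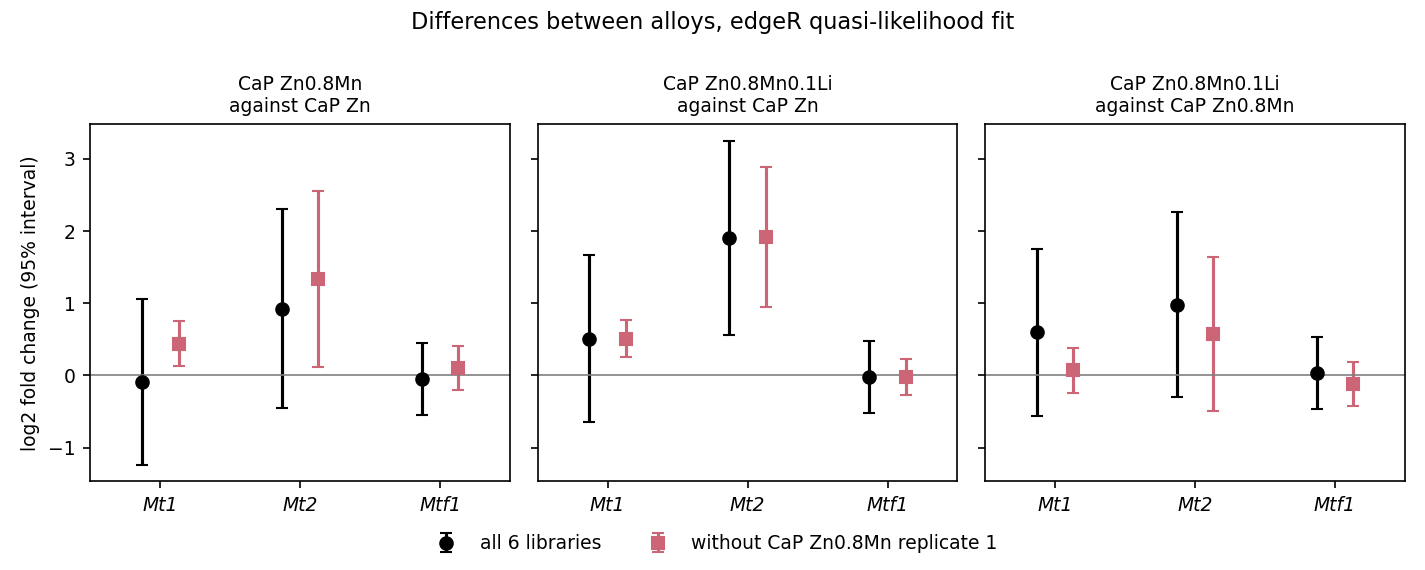
Log2 difference of each gene in the 3 comparisons, with its 95% interval, from all 6 libraries (black circles) and without CaP Zn0.8Mn replicate 1 (red squares). In the middle panel, Mt2 stands at 1.90 and 1.92, and the Mt1 value on CaP Zn0.8Mn against CaP Zn goes from -0.09 to 0.44 when that library is left out.

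One test over the 3 alloys together gave no call either. With all libraries, edgeR's F test gave an unadjusted p of 0.420 for Mt1, 0.0344 for Mt2 and 0.966 for Mtf1. The adjusted p values were 0.945, 0.945 and 0.993, and 0% of genes were called, with 139 (1.06%) at an unadjusted p under 0.05. Without CaP Zn0.8Mn replicate 1, the unadjusted p was 0.00209 for Mt1 and 0.00268 for Mt2, with an adjusted p of 0.761 for both, and 1 gene was called (0.0076%), with 4.07% at an unadjusted p under 0.05. In the remaining manganese-containing libraries, with or without lithium, Mt1 and Mt2 both lay above both CaP Zn libraries in each of the 3, as did 10.7% of tested genes.

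CaP Zn0.8Mn replicate 1 held less of all 3 messages than replicate 2. Its CPM was 0.384 times that of replicate 2 for Mt1 and 0.511 times for Mt2, and Mtf1 stood at 23.5 against 29.4 CPM. It was the lowest of the 6 libraries for Mt1 and Mtf1, as it was for 41.9% of tested genes. For Mt2 it lay above both CaP Zn libraries. With 0.5 CPM added to each value, 15.2% of tested genes were more than 2-fold lower in replicate 1 than in replicate 2. A ratio below that of Mt1 was held by 8.37% of them, below that of Mt2 by 24.5% and below that of Mtf1 by 36.6%. The high mitochondrial share given above moves with these low values, and its part in them was not tested. The macrophage markers did not move together there, with 4 of 8 at their highest and 4 at their lowest.

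The Mt2 share of the Mt1 and Mt2 counts can be read within a library, where scaling does not enter. It is a share of counts and not a balance of messages. Of 588 Mt2 exon bases, 432 overlap an antisense gene, and reads there may not have been counted for Mt2. Mt1 exons overlap no other gene. Mt2 took 0.156% (95% exact Clopper-Pearson interval 0.0673 to 0.307) and 0.220% (0.110 to 0.393) of the Mt1 and Mt2 counts on CaP Zn. It took 0.467% (0.233 to 0.834) and 0.351% (0.220 to 0.531) with manganese alone, and 0.504% (0.343 to 0.715) and 0.496% (0.353 to 0.678) on CaP Zn0.8Mn0.1Li. Both CaP Zn libraries lay below the other 4. In CaP Zn0.8Mn replicate 1 the share rests on 11 Mt2 counts, as many as in CaP Zn replicate 2. These stood beside the lowest Mt1 count of all libraries, 2345. Single-library intervals overlapped between groups, and that of CaP Zn replicate 2 overlapped those of both lithium-alloy libraries. Summed over the libraries of an alloy, the share was 0.187% (0.113 to 0.293) on CaP Zn, from 19 Mt2 counts beside 10119 of Mt1. It was 0.382% (0.263 to 0.537) with manganese and 0.500% (0.390 to 0.631) with manganese and lithium, from 33 and 70 Mt2 counts. These intervals cover counting error only, not the spread between cultures, and no test was made of the share.

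**Figure D3:**
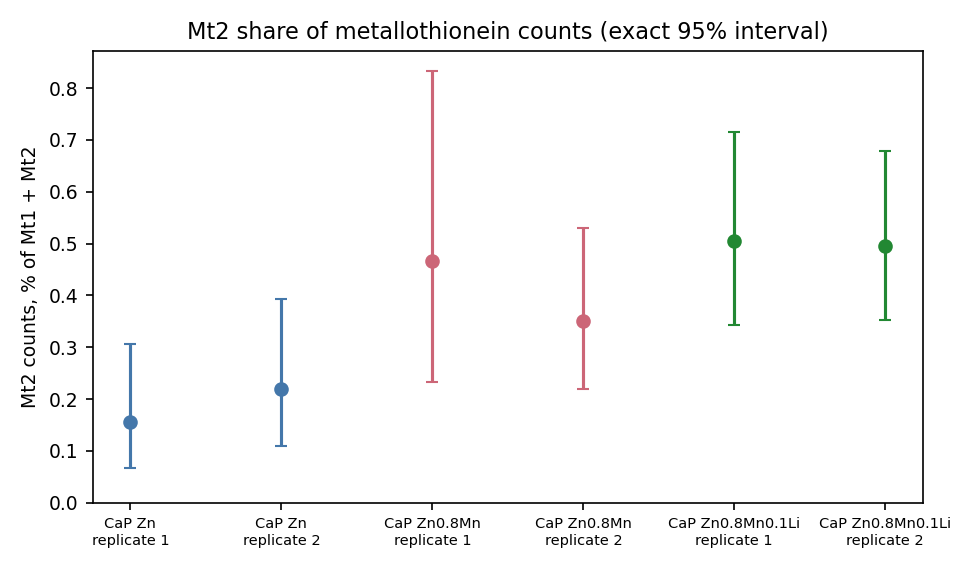
Mt2 counts as a percent of Mt1 plus Mt2 counts in each library, with the exact 95% interval of the count. The CaP Zn libraries stand at 0.156 and 0.220%, below the other 4 at 0.351 to 0.504%, with overlapping intervals between several libraries. Reads in bases shared with an antisense gene may be missing from the Mt2 counts.

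Mt2 thus had 1 count for every 197 to 641 counts of Mt1. The Mt2 value carries a limit that Mt1 does not: 432 of its 588 exon bases (73.5%) lie inside the single exon of Gm45774 (ENSMUSG00000110588), an antisense gene on the minus strand at 94170748 to 94173412 of chromosome 8. Only 156 Mt2 bases are free of it. Gm45774 itself had 7 counts in each CaP Zn library, 1 and 7 counts with manganese alone, and 12 and 3 counts with manganese and lithium, with no order by alloy. Whether reads were counted by strand is not given in the sources used here, so reads in the shared bases may have gone to either gene or to neither. The part of this overlap in the low Mt2 count was not tested, and the Mt2 level is uncertain for that reason. Mt1 exons overlap no other gene. Of the 8907 Mtf1 exon bases, 721 (8.09%) overlap 1110065P20Rik on the minus strand, which had 307 to 385 counts in 5 libraries and 59 in replicate 1 of CaP Zn0.8Mn.

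Shared sequence between the 2 metallothionein messages is short. The main transcripts Mt1-201 and Mt2-201, of 549 and 511 bases, have a longest identical run of 20 bases. None of the 3 genes shared a run of 50 bases on its own strand with any other annotated gene.

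The rest of the cluster was silent or close to it. Mt3 (chromosome 8, 94152607 to 94154146) had 0 to 5 counts per library, and Mt4 (94137197 to 94139031) had 0 in all 6, which allows up to 0.161 to 0.198 CPM. Over the 43.1 kb from the start of Mt4 to the end of Mt1, Mt1 therefore gave nearly all metallothionein counts. Among the 10 genes within 100 kb of Mt1, 5 passed the filter: Mt1, Mt2, Bbs2, Nup93 and Rpl10-ps5. Nup93, a nuclear pore component, stood at 21.0 to 27.1 FPKM. Bbs2, a subunit of the cilium trafficking complex, stood at 1.01 to 1.89 FPKM. With CaP Zn0.8Mn replicate 1 left out, the lithium alloy against CaP Zn gave no called difference for either: Nup93 differed by -0.04 (SE 0.081) and Bbs2 by -0.03 (SE 0.26) on the log2 scale. Rpl10-ps5, a ribosomal protein pseudogene whose reads may come from its parent gene, stood at 4.31 to 9.63 FPKM. Gm39228 stood at 0 to 1.01 FPKM, Gm45774 at 0.0242 to 0.270 FPKM and Gm45804 at 0.0464 to 0.175 FPKM.

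**Figure D4:**
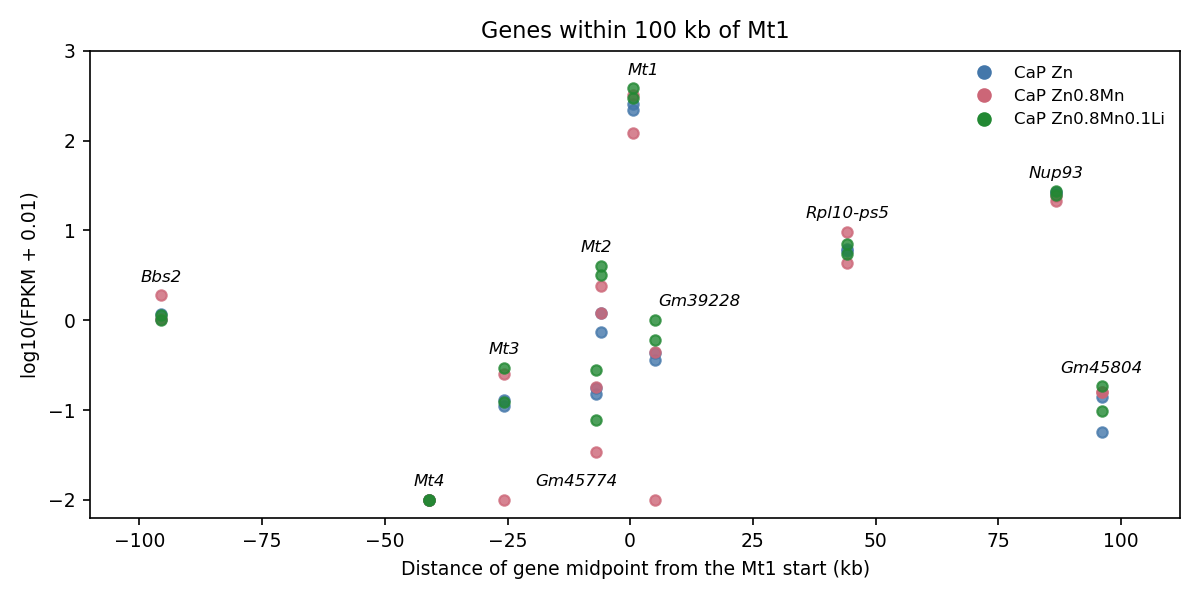
Level of the 10 genes within 100 kb of Mt1 in each library, as log10 of FPKM plus 0.01, against the distance of the gene's midpoint from the Mt1 start in kb; colours are alloys. Mt1 stands at 121 to 380 FPKM, above Nup93 at 21.0 to 27.1 FPKM, and Mt4 is at 0 in all 6 libraries.

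Other genes of the metal response lay on both sides of zero on the lithium alloy, and none passed the test. Of 13 MTF-1 targets other than metallothioneins, 11 were tested, and none was called in any comparison, nor reached an unadjusted p under 0.05 with all 6 libraries. With lithium and manganese against zinc alone, 6 were higher and 5 lower, none past the test, with a median log2 difference of 0.0056 beside 4.74e-05 over all tested genes. The list includes Slc39a10, which the factor represses, so these counts and the median mix opposite directions and do not measure MTF-1 activity. Slc30a1, the zinc exporter, stood at 26.9 and 31.0 CPM on CaP Zn, 35.4 and 25.9 CPM on CaP Zn0.8Mn, and 31.3 and 26.9 CPM on CaP Zn0.8Mn0.1Li. The alloys overlapped, and without CaP Zn0.8Mn replicate 1 the lithium alloy differed from CaP Zn by 0.0076 (95% interval -0.26 to 0.27, log2). Slc39a10, the importer, differed by 0.057 (95% interval -0.18 to 0.29). Gclc, which makes the first enzyme of glutathione synthesis, differed by -0.087 (95% interval -0.32 to 0.15).

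The targets with the largest differences at 5 CPM or more were Cebpa, Csrp1 and Selenow. Cebpa, a myeloid transcription factor, stood at 16.6 and 14.7 CPM on CaP Zn, 52.6 and 10.8 CPM on CaP Zn0.8Mn, and 9.36 and 11.2 CPM on CaP Zn0.8Mn0.1Li. Its highest value by far was in CaP Zn0.8Mn replicate 1, opposite to Mt1. Without that library, its log2 difference on CaP Zn0.8Mn0.1Li against CaP Zn was -0.61 (SE 0.17), with an unadjusted p of 0.00241 and an adjusted p of 0.596 in edgeR's test. Csrp1, a LIM-domain protein, differed by 0.14 (SE 0.17) with all libraries. Selenow, a small selenoprotein, differed by 0.11 (SE 0.76) and stood at 16.8 CPM in CaP Zn0.8Mn replicate 1 and 83.1 to 103 CPM elsewhere.

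The factors that act with MTF-1 or beside it had small differences. Of 7 regulators of metallothionein transcription, 4 were higher and 3 lower on CaP Zn0.8Mn0.1Li against CaP Zn with all libraries, none called, with a median log2 difference of 0.024. Usf2, which binds E-boxes near MREs, differed by -0.22 (SE 0.22), Nr3c1, the glucocorticoid receptor, by -0.10 (SE 0.30) and Ep300, a coactivator, by -0.09 (SE 0.44). Nr3c1 stood at 113 CPM and Ep300 at 186 CPM in CaP Zn0.8Mn replicate 1, against 62.6 to 76.1 CPM and 71.7 to 84.7 CPM in the other libraries.

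Genes that answer the other inducers of metallothioneins were counted in the same way. Of 10 glucocorticoid-induced genes, 8 were tested, and 5 were higher and 3 lower on CaP Zn0.8Mn0.1Li against CaP Zn, none called, with a median of 0.051. Dusp1, a kinase phosphatase, differed by 0.33 (SE 0.58), Tsc22d3, the glucocorticoid-induced leucine zipper, by 0.22 (SE 0.74) and Klf9 by -0.18 (SE 0.26). Of 8 genes induced by cadmium or oxidants, 7 were tested, and 3 were higher and 4 lower, none called, with a median of -0.041. Hspa1b, an inducible heat shock protein, had 56 and 165 counts on the zinc metal, 37 and 263 counts with manganese and 331 and 181 counts with manganese and lithium. Its difference was 1.20 (SE 1.01), and both it and Hspa1a, known as a near-identical copy, are uncertain because reads may be shared between them, which was not measured. Gclm, the glutathione synthesis partner of Gclc, differed by -0.15 (SE 0.21), and Hmox1, heme oxygenase, by 0.14 (SE 0.50). In edgeR's test these differences had an adjusted p of 1.00.

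In the other 2 comparisons the lists also gave no call, and their medians moved when CaP Zn0.8Mn replicate 1 was left out. On CaP Zn0.8Mn against CaP Zn with all libraries, the median was 0.035 for MTF-1 targets, -0.12 for regulators, -0.26 for glucocorticoid-induced genes and 0.0076 for the cadmium or oxidant list, beside 0.0048 over all genes. Without that library these became -0.097, -0.095, 0.047 and -0.036, beside -0.0084. With the lithium alloy set against CaP Zn0.8Mn, they were 0.11, 0.011, 0.30 and 0.44 with all libraries, beside -0.0019, and -0.015, 0.081, 0.063 and -0.062 without it, beside -0.0015. Of all members of the 4 lists, only Cebpa, lower, and Hspa1a, higher, passed the unadjusted threshold without that library, each in both comparisons with CaP Zn. The shares of all tested genes that did so are given above, and these 2 genes are no result about the lists. Hspa1a had low counts, and CaP Zn replicate 2 (1.79 CPM) lay above CaP Zn0.8Mn0.1Li replicate 2 (1.71 CPM).

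**Figure D5:**
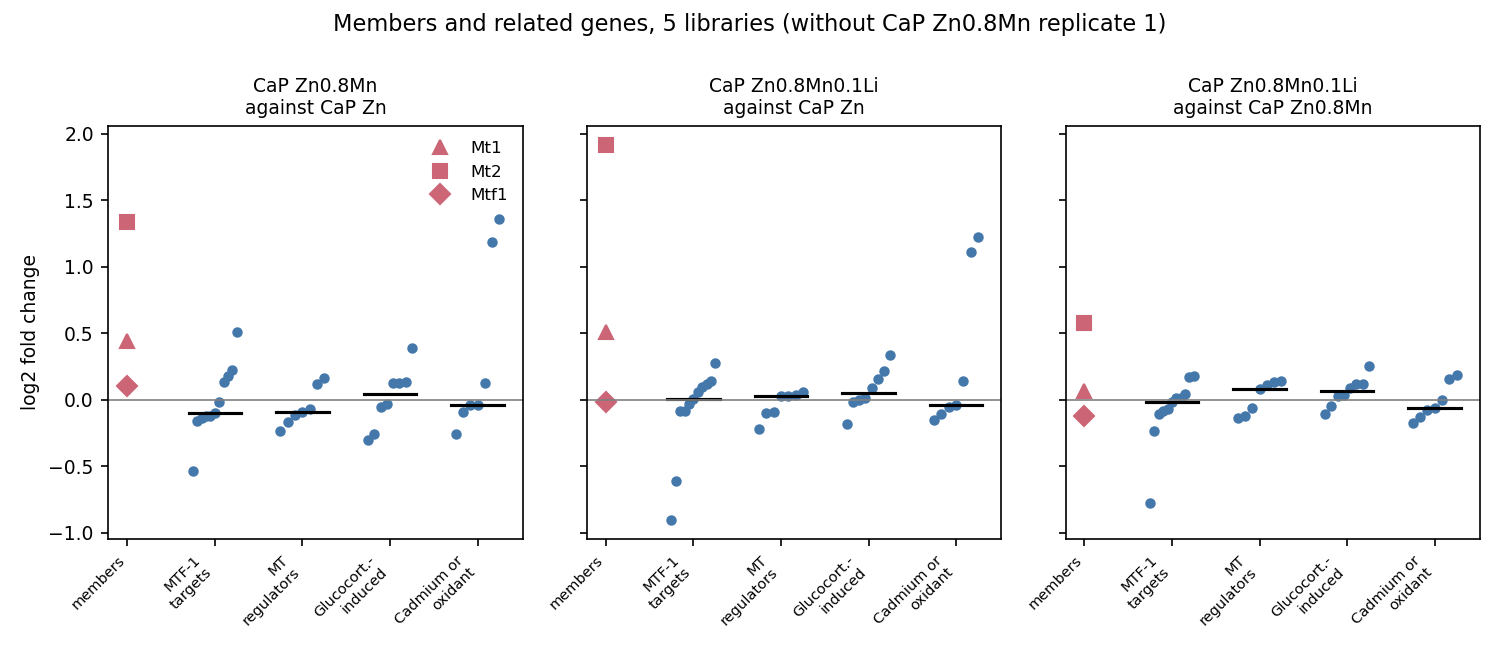
Log2 differences without CaP Zn0.8Mn replicate 1 for Mt1, Mt2 and Mtf1 (red) and for the tested genes of 4 lists (blue points, black line the median) in the 3 comparisons. On CaP Zn0.8Mn0.1Li against CaP Zn, the list medians lie between -0.041 and 0.052, Mt1 at 0.51 and Mt2 at 1.92.

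Last, the genes whose levels ran most like each of the 3 were taken by the smallest root mean square difference of centred log2 CPM over the 6 libraries, among 9765 genes of at least 5 CPM. For Mt1 these were Slc15a3 (0.071), a peptide transporter of the lysosome, Neat1 (0.090), a nuclear noncoding RNA, 4930440I19Rik (0.093), Plaur (0.095), the urokinase receptor, and Sdc1 (0.10), a cell-surface proteoglycan. Slc15a3 stood at 50.6 and 54.7 CPM on CaP Zn, 29.9 and 69.9 CPM on CaP Zn0.8Mn, and 64.0 and 80.6 CPM on CaP Zn0.8Mn0.1Li. Its lowest library was CaP Zn0.8Mn replicate 1, as for Mt1. For Mtf1 they were Tmem234 (0.016), Atp6v1h (0.021), a subunit of the vacuolar proton pump, and Gpat4 (0.022), an enzyme of glycerolipid synthesis. For Mt2 the nearest, Ecm1 (0.33), Itgb7 (0.33) and Ier5l (0.34), were much further off. Mt2 itself had only 8 to 39 counts, and 0.5 CPM was added to each value before the logarithm. Its distances therefore carry counting noise and are not comparable with those of Mt1 and Mtf1. With so many genes and 6 libraries, such likeness is a description and was not tested.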

How the data were processed

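Polyadenylated RNA from 6 libraries of RAW 264.7 cells, lysed in TRIzol, was prepared with Illumina's TruSeq kit and sequenced, as the labels' protocols state. Groups came from the treatment label and replicate numbers from the titles. The authors deposited read counts per gene, whole numbers with no normalization, and FPKM values. For the aligner, counter and strand setting, nothing is stated: not given in the sources used here.

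Tests on counts used edgeR 4.0.16 (R 4.3.3) and its quasi-likelihood test (filterByExpr, TMM, robust fit, two-sided) in a group-means model over all 6 libraries, with 3 residual degrees of freedom. P-values were adjusted over all 13156 tested genes (Benjamini-Hochberg) and called under 0.05. CPM values were scaled with TMM factors of 0.973 to 1.05. The code was tested on simulated data. DESeq2 1.42.0, limma 3.58.1 (on counts and on log2 FPKM), other filters and scalings, and each library left out were alternatives. The lone sample of an alloy is then assumed to vary like the others. Chi-square per gene between the replicates of an alloy was 10.6, 248 and 5.71, above sampling noise, so each library was counted separately.

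Motifs were searched in RefSeq promoters, where 7 of 8 genes asked for matched. Named genes were the 3 members, Mt3 and Mt4, all genes within 100 kb of Mt1, Slc30a1, Slc39a10 and Gclc, the 3 genes of each list with the largest difference on CaP Zn0.8Mn0.1Li against CaP Zn at 5 CPM or more, any list gene called, and the 5 or 3 most alike profiles. The others named, Gm45774 and 1110065P20Rik for overlap, Hspa1a, and the cell type markers singled out, were chosen after their values were seen. Members and lists were chosen with earlier results of these data known. Intervals of the Mt2 share and floors cover counting error only, while intervals of log2 differences include the spread between libraries. Reads carry no molecular identifiers, so copies of one molecule may be counted more than once, and the intervals of the share may be too narrow.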

Additional observations from a re-analysis of the deposited data

How the results depend on the processing

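On CaP Zn0.8Mn0.1Li against CaP Zn, Mt1 and Mt2 were higher under every alternative that gave a value, at 0.31 to 0.67 for Mt1 and 1.23 to 2.29 for Mt2 (log2). Leaving out each library in turn gave 0.31 to 0.67 for Mt1 and 1.58 to 2.29 for Mt2. All alternatives re-use the same libraries, and both lithium-alloy libraries lay above both CaP Zn libraries for these genes. The shared sign is therefore no added evidence. Mt1 passed the threshold with DESeq2 without CaP Zn0.8Mn replicate 1 (0.51) and without that library and CaP Zn replicate 1 (0.41). Mtf1 ranged from -0.068 to 0.024 over left-out libraries and was 0.024 without CaP Zn replicate 2 and 0.014 without CaP Zn0.8Mn0.1Li replicate 2. Against CaP Zn, Mt1 on CaP Zn0.8Mn ranged from -0.95 to 0.44 over the left-out libraries, with 0.020 without CaP Zn replicate 2. Without CaP Zn0.8Mn replicate 1 it was 0.44 in DESeq2, in limma-voom and with genes filtered anew, 0.38 scaled by library totals alone, and 0.34 without CaP Zn replicate 1 too. Mtf1 there ranged from -0.23 to 0.10 over left-out libraries and was 0.10, 0.10, 0.10, 0.036 and 0.059 in that order. Between the lithium alloy and CaP Zn0.8Mn, Mtf1 ranged from -0.12 to 0.20 over left-out libraries and was -0.12, -0.12, -0.12, -0.098 and -0.12 in that order and -0.015 without CaP Zn0.8Mn0.1Li replicate 1. In that comparison, left-out libraries gave 0.066 to 1.45 for Mt1 and 0.58 to 1.54 for Mt2, the highest without CaP Zn0.8Mn replicate 2. The cause was not tested.

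Counts of genes called, 0 with all libraries, were 1 on CaP Zn0.8Mn against CaP Zn with DESeq2 and with no filter, and 3 and 1 between the lithium alloy and CaP Zn0.8Mn. The F test had 1 with no filter. Left-out libraries gave 0 to 7808 calls in the first of these comparisons, 0 to 8096 in the second and, in the F test, 0 to 7603, the highest without CaP Zn0.8Mn replicate 2. Without CaP Zn0.8Mn replicate 1, calls on CaP Zn0.8Mn against CaP Zn were 5 in DESeq2, 1 in limma-voom, 2 with genes filtered anew, 1 by library totals and 43 without CaP Zn replicate 1 too. For the lithium alloy against CaP Zn they were 12 in DESeq2, 1 with genes filtered anew and 47 without CaP Zn replicate 1 too. For the lithium alloy against CaP Zn0.8Mn they were 3, 2, 4, 2 and 40 in the first order. The F test gave 1 in limma-voom, 5, 2 and 91. Its adjusted p ranged over left-out libraries from 1.10e-05 to 1.00 for Mt1 and from 0.00488 to 1.00 for Mt2, both lowest without CaP Zn0.8Mn replicate 2, and was 0.0334 for Mt1 without CaP Zn0.8Mn replicate 1 and CaP Zn replicate 1.

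The Mt2 share from FPKM in place of counts, which divides by gene length, was 0.330 and 0.465% for CaP Zn, 0.984 and 0.740% with manganese and 1.06 and 1.05% with manganese and lithium. A minimum mean of 100 counts leaves Mt2 out. Same-numbered libraries did not deviate together in every pair of alloys (correlations across genes 0.29, -0.19 and -0.098), so numbers were not taken as pairs. With the replicate block, Mt1 differed by -0.22, 0.49 and 0.71, Mt2 by 0.89, 1.93 and 1.03 and Mtf1 by -0.057, -0.017 and 0.039 for manganese against zinc, lithium against zinc and lithium against manganese, and no call on them changed. At 8 to 39 counts, depth limits Mt2.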
